A study of Sus scrofa with 70 samples.

Results

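FOXA1, FOXA2, SPDEF, EHF, ELF5, GRHL2, PAX2, PAX8 and TP63 are transcription factors of the epithelium that lines and builds glands, and their RNA levels were compared over the 5 reproductive glands of the boar. The members were taken by gene name from the merged annotation, and the TPM (a transcript's share of all transcripts, corrected for length and scaled to 1000000 per library) of all transcripts carrying a name were summed. Of the 9 names, 8 were found among 35680 genes with a value above 0, and PAX8 was not analysed here. The glands were the testis (Tes), the epididymis (Epi), the vesicular gland (VG), the prostate gland (PG) and the bulbourethral gland (BG) of untreated male pigs aged 12 months. They came from the Banna mini-pig inbred line (BMI) and from the Diannan small-ear pig (DSE), the population from which BMI was inbred. There were 3 RNA-seq libraries and 1 Iso-seq (long-read) library for each breed and gland, thus 30 and 10 libraries. The labels do not say whether the 3 replicates were separate boars, so p-values measure only the spread between these samples.

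The epididymis and the vesicular gland form from the Wolffian duct of the embryo, a tube of mesodermal origin, while the prostate and bulbourethral glands bud from the urogenital sinus, which is lined by endoderm. FOXA1 and FOXA2 are forkhead pioneer factors that open chromatin in endodermal organs, and FOXA1 works with the androgen receptor in the prostate. SPDEF, EHF and ELF5 belong to the ETS family, with SPDEF known from mucous and other secretory cells, ELF5 from the secretory cells of the mammary gland and EHF from many glandular epithelia. GRHL2 keeps up the genes of epithelial cell junctions, PAX2 is needed to form the Wolffian duct, and TP63 maintains basal cells. Every sample was a whole piece of gland, so fewer cells of a type and less RNA per cell cannot be told apart.

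The labelled organs were checked against defining genes. INSL3 of Leydig cells lay between 11448 and 42359 TPM in testis and at most 2.91 TPM in the other glands, and the prostate gene HOXB13 lay between 92.7 and 297 TPM in prostate gland and at 0 in epididymis, vesicular and bulbourethral gland. PATE1, which was listed for the vesicular gland, did not exceed 0.254 TPM there and reached 157.5 TPM in epididymis, so it did not mark the vesicular gland. SEMG1 and SVS2, the others listed, were not matched by name. The epithelial genes EPCAM, CDH1, KRT7, KRT8, KRT18 and KRT19 summed to medians of 1587 TPM in epididymis, 1139 TPM in vesicular gland, 2004 TPM in prostate gland and 2727 TPM in bulbourethral gland and to between 14.9 and 42.3 TPM in testis. The vesicular libraries, between 806 and 1367 TPM, lay wholly below the bulbourethral libraries, between 2457 and 3282 TPM. The 6 epididymis libraries differed among themselves, with smooth muscle markers summing to between 1844 and 18793 TPM. The 10 most abundant genes took between 9.94% and 67.0% of a library, the most in vesicular gland.

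BMI prostate gland replicate 2 stood apart. The 20 genes with the largest excess of vesicular over prostate gland, chosen without that library and without the factors, summed to 418413 TPM in it, to between 22.9 and 74.2 TPM in the other 5 prostate libraries and to between 500263 and 675292 TPM in the vesicular gland. HOXB13 was at 92.7 TPM in it and between 264 and 297 TPM in the others. The BMI prostate Iso-seq library showed the same genes, of which 17 had isoforms, at 7.27% of its full-length reads against 0.00625% in the DSE prostate library and 5.81% in the BMI vesicular library. Values of the factors without BMI prostate gland replicate 2 are therefore given as well, as are prostate means of other genes that it moves strongly.

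The loci are given on Sscrofa11.1, with the span of all transcripts of the merged annotation. FOXA1 (ENSSSCG00000037634) lies at chr7:62471068-62479220 on the plus strand and SPDEF (ENSSSCG00000036573) at chr7:30515923-30535823 on the minus strand. FOXA2 (ENSSSCG00000007114), at chr17:29997401-30001707 on the minus strand, has a single transcript and no added Iso-seq isoform. GRHL2 (ENSSSCG00000006060) spans chr4:35371136-35630773 on the minus strand with 21 transcripts, and PAX2 (ENSSSCG00000010556) spans chr14:111822832-111914915 on the plus strand with 19. TP63 (ENSSSCG00000025592) is at chr13:127116105-127347070 on the plus strand. EHF (ENSSSCG00000013300, chr2:26287241-26340245, minus strand) and ELF5 (ENSSSCG00000013301, chr2:26443977-26488789, plus strand) are neighbours that point away from each other, with 103731 bases between their spans.

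Starts of transcripts lying within 1000 bases of the next were grouped along each gene, and some of these start groups are shown here. Their sequences are shown because short-read shares of annotated starts varied between glands for ELF5 and EHF, as for GRHL2, whose windows are not shown. The TP63 window is shown because TP63 RNA came almost wholly from an internal start. Each window runs from 250 bases before the start to 50 bases from it on, 5′ to 3′ on the strand of the gene, read from the Sscrofa11.1 genome of RefSeq. Capitals mark the forkhead motif TGTTTAC or the TATA motif TATAAA.
ELF5 start group 2, chr2:26456665-26456964: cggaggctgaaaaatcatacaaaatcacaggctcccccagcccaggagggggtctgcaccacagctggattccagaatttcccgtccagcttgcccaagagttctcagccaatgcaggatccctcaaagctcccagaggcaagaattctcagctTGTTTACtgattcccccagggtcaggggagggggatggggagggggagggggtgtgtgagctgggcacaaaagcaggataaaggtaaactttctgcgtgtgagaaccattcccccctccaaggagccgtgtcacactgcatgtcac
ELF5 start group 3, chr2:26458838-26459137: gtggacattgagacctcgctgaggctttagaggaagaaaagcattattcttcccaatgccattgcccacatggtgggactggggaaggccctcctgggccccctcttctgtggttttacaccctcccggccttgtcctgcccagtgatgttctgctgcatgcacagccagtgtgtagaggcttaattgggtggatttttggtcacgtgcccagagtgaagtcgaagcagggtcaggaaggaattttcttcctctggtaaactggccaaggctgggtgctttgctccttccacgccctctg
EHF start group 3, chr2:26331395-26331694: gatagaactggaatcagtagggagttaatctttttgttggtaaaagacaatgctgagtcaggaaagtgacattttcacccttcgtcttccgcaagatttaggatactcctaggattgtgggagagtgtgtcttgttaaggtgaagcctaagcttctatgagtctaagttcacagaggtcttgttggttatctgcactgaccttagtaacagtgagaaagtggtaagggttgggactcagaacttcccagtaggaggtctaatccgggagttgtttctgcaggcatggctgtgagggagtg
TP63 internal start, chr13:127243863-127244162: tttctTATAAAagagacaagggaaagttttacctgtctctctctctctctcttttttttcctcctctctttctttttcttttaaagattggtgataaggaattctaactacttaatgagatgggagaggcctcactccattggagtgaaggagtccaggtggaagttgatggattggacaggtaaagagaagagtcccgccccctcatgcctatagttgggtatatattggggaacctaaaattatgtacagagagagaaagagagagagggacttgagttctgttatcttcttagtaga
ELF5 start group 2 is an Iso-seq start that lies in an intron of 2 other transcripts, and start group 3 holds 1 of the 4 Ensembl transcripts of ELF5. TGTTTAC began 96 bases before the start of ELF5 group 2. It was in 3.142% of 40195 gene windows, 1 for each gene at its first annotated start, which ELF5 group 2 is not. In all, 5 motifs were searched on both strands in 13 windows of the 8 genes. These motifs were TGTTTAC (forkhead), CCGGAA (ETS, 12.429% of the gene windows), the grainyhead motif (0.308%), TATAAA (16.35%) and GTCACGC (paired box, 1.824%). The other matches were CCGGAA in the window of a PAX2 start (chr14:111832669-111832968, 57 bases before it), TATAAA 245 bases before the TP63 internal start, and CCGGAA and TATAAA on the minus strand with a TATAAA overlapping on the plus strand at ELF5 start group 5. The FOXA1 window was 73.67% G and C, against a median of 50.667% over the gene windows. A match describes letters only, and no factor binding was measured.

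FOXA1, FOXA2, SPDEF and EHF were higher in both sinus-derived glands than in both duct-derived glands, and PAX2 was higher in both duct-derived glands. GRHL2 was not called between any of the 4 glands, while ELF5 was highest in one duct-derived gland and lowest in the other, and TP63 was lowest in prostate gland. Origin was compared as the mean of epididymis and vesicular gland minus the mean of prostate and bulbourethral gland on the scale of log2(TPM + 1), in a limma model of all 19911 genes with at least 1 TPM in 3 libraries. A gene was called when its p, adjusted by the Benjamini-Hochberg method, was below 0.05 and its difference was 1 or more. By this rule 6 of the 8 factors were called, 2 of them higher in the duct-derived glands and 4 in the sinus-derived glands, while over all genes 13.0% were called, 6.67% and 6.34% in these directions. A stricter rule asked that all 4 pairs of glands across origins be called in the same direction. It was met by FOXA1, FOXA2, SPDEF and EHF for the sinus-derived glands, where 1.84% of genes met it, and by PAX2 for the duct-derived glands, where 1.4% did. It was not met by EHF with scaling to epithelial genes, where vesicular gland differed from prostate by -0.75 and from bulbourethral gland by -0.53, nor in the BMI libraries alone by EHF (vesicular minus prostate gland -0.88) and FOXA1 (-1.24). The 6 luminal genes named above moved with origin too, with a median difference of -0.93 and 2 of 6 called, both higher in the sinus-derived glands. Some other marker lists moved more. Medians were 3.03 for smooth muscle (5 of 6 called), 2.81 for epididymis (5 of 5) and 1.56 for urothelium (3 of 5). The median of prostate markers was -5.12 (3 of 4). After scaling to 4 luminal genes, EPCAM, CDH1, KRT8 and KRT18, the origin difference was -3.24 for FOXA1, -4.04 for FOXA2, -7.12 for SPDEF, -1.06 for EHF, 7.11 for PAX2 and 1.98 for TP63. These 6 were still called, but under this scaling 8185 of all 19911 genes were called by origin, against 2591 without it. Each origin is represented by 2 glands, so origin and the glands that stand for it cannot be told apart, and an exact test over the 4 glands could not go below p = 0.333.

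**Figure D1:**
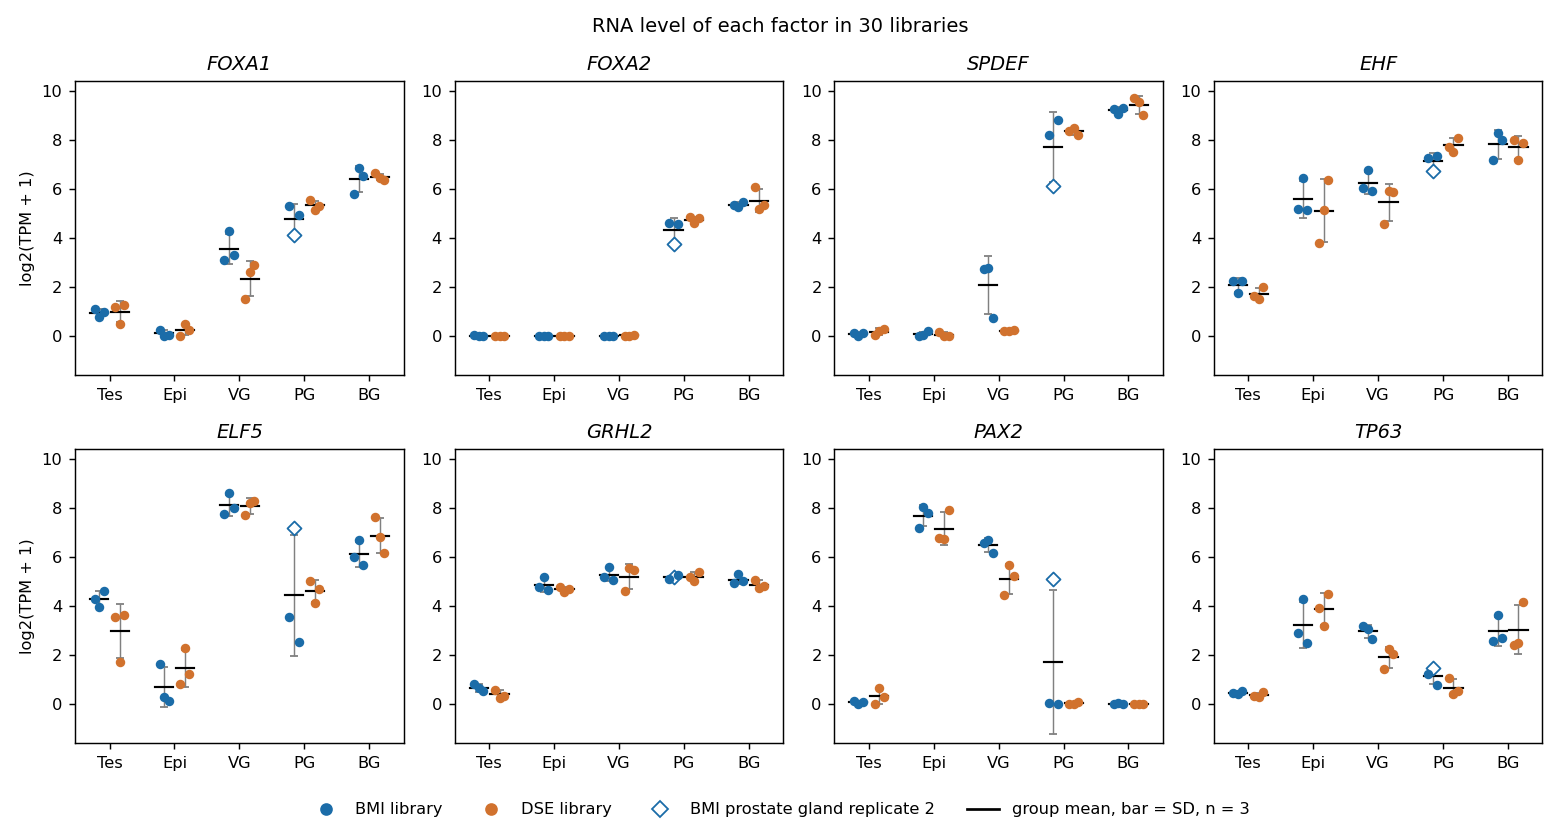
RNA level of each factor as log2(TPM + 1) (y axis) in the 5 glands (x axis), with a point for each library, BMI in blue and DSE in orange, black lines for means of 3 libraries and grey bars for SD. FOXA2 and SPDEF are highest in PG and BG, PAX2 in Epi and VG, GRHL2 overlaps between the 4 glands other than testis, and the open diamond, BMI prostate gland replicate 2, lies within the VG range for PAX2 at 33.4 TPM.

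FOXA1 was nearly absent from epididymis, at 0.205, 0 and 0.0406 TPM in the BMI and 0.0171, 0.396 and 0.203 TPM in the DSE libraries. In vesicular gland it stood at 7.53, 18.3 and 8.83 TPM in BMI and at 1.87, 5.07 and 6.41 TPM in DSE. Prostate gland had 38.8, 16.6 and 29.3 TPM in BMI and 45.3, 34.5 and 38.7 TPM in DSE, the value of 16.6 TPM being that of BMI replicate 2. Bulbourethral gland was highest, at 54.9, 116 and 92.0 TPM in BMI and 98.3, 86.1 and 82.0 TPM in DSE. The 6 bulbourethral libraries lay above all prostate libraries and these, save BMI replicate 2, above all vesicular libraries. On the log2 scale the difference by origin was -4.19 (SE 0.18, adjusted p = 1.5e-15), the vesicular gland differed from prostate by -2.12 (adjusted p = 6.5e-07) and epididymis from vesicular gland by -2.76 (adjusted p = 3.9e-09). Prostate minus bulbourethral gland was also called (-1.38, adjusted p = 0.00027), but it was -0.86 and not called with scaling to epithelial genes and not called in DSE alone (-1.15, adjusted p = 0.077).

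FOXA2 had a sharper boundary. It was at 0 in all 6 epididymis libraries and in 4 of 6 vesicular libraries, the other 2 being at 0.018 and 0.0462 TPM, and at most 0.0356 TPM in testis. Prostate gland had 23.6, 12.5 and 22.9 TPM in BMI and 27.7, 23.6 and 26.9 TPM in DSE. Bulbourethral gland had 39.6, 37.8 and 43.6 TPM in BMI and 65.7, 35.6 and 39.3 TPM in DSE. The sinus-derived and duct-derived libraries did not overlap, and the origin difference was -4.98 (SE 0.11, adjusted p = 1.1e-20). Prostate and bulbourethral gland differed by -0.91 (adjusted p = 0.00018), which was under the size of 1 asked for, while in BMI alone the difference was -1.05 (adjusted p = 0.0080) and called. The origin difference was -8.20 with a pseudocount of 0.1.

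SPDEF reached the highest level of the 8 factors. The BMI prostate libraries had 294, 67.9 and 449.9 TPM, with the lowest in replicate 2, and the DSE prostate libraries 331, 359 and 293 TPM. Bulbourethral gland had 618, 533 and 633 TPM in BMI and 846, 756 and 521 TPM in DSE, above every prostate library. Epididymis did not exceed 0.146 TPM. In vesicular gland the BMI libraries had 5.74, 5.86 and 0.654 TPM and the DSE libraries 0.146, 0.154 and 0.182 TPM, so the breeds did not overlap there. The origin difference was -8.07 (SE 0.23, adjusted p = 6.2e-19) and -8.27 without BMI prostate gland replicate 2, and it ran from -10.17 with a pseudocount of 0.1 to -4.26 with Ensembl transcripts alone. Prostate minus bulbourethral gland was -1.29 (adjusted p = 0.0064), but without that library it was -0.89 and not called.

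EHF differed less between origins. Its lowest, median and highest values were 12.9, 34.9 and 86.6 TPM in epididymis, 22.7, 58.7 and 108 TPM in vesicular gland, 106, 173 and 272 TPM in prostate gland and 143, 245 and 311 TPM in bulbourethral gland. The highest vesicular library thus lay just above the lowest prostate library, which was BMI replicate 2. The origin difference was -2.005 (SE 0.24, adjusted p = 2.6e-07), and with scaling to epithelial genes it was -1.06, close to the size asked for. Prostate and bulbourethral gland did not pass the test against each other (-0.30, adjusted p = 0.66), nor did epididymis and vesicular gland (-0.50, adjusted p = 0.20), although with median-of-ratios size factors the latter was -1.57 and called.

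PAX2 had the inverse distribution. Epididymis had 146, 257 and 222 TPM in BMI and 108, 106 and 240.4 TPM in DSE. Vesicular gland had 94.8, 103.2 and 70.9 TPM in BMI and 20.8, 49.3 and 36.8 TPM in DSE. Prostate gland did not exceed 0.0534 TPM in 5 libraries and had 33.4 TPM in BMI replicate 2, while bulbourethral gland did not exceed 0.0311 TPM. The duct-derived libraries and the sinus-derived libraries other than BMI prostate gland replicate 2 did not overlap. The origin difference was 6.16 (SE 0.38, adjusted p = 1.9e-12) and without that library 6.59 (SE 0.16, adjusted p = 3.3e-20), and it ran from 3.17 with Ensembl transcripts alone to 9.08 with a pseudocount of 0.1. Epididymis exceeded vesicular gland by 1.61 (adjusted p = 0.011), which was 0.53 and not called with size factors and -0.08 with Ensembl transcripts alone. It was not called either with a pseudocount of 0.1 (adjusted p = 0.099), with scaling to epithelial genes (1.27, adjusted p = 0.075) or in BMI alone (1.19, adjusted p = 0.34).

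**Figure D2:**
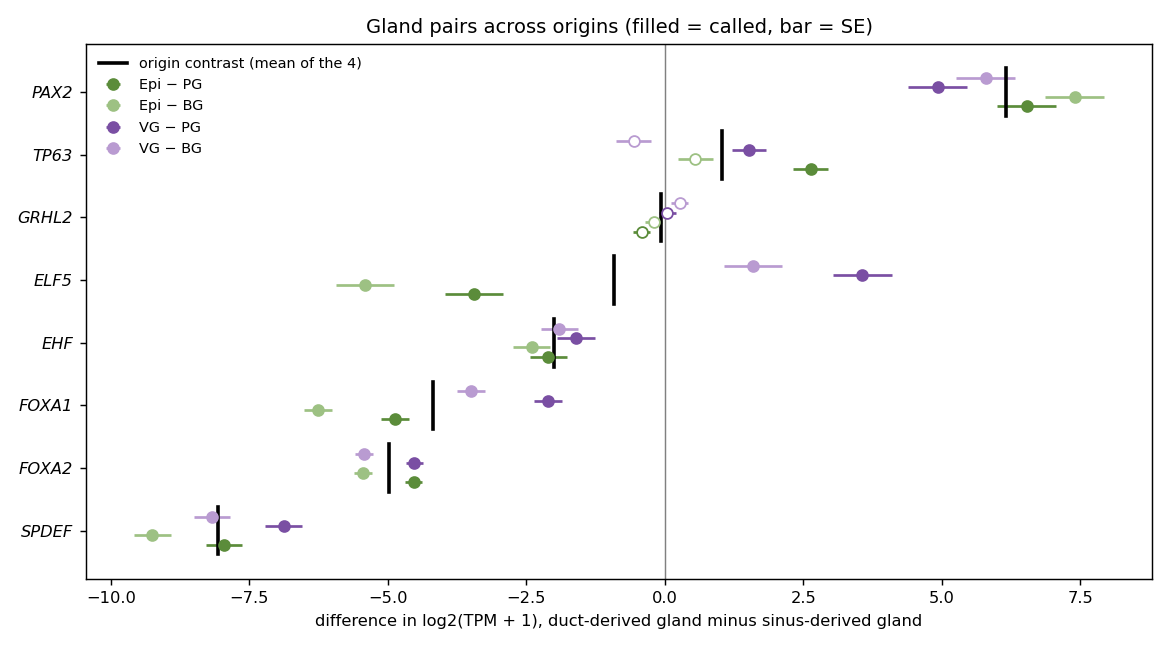
Differences in log2(TPM + 1) between a duct-derived and a sinus-derived gland (x axis) for each factor (y axis). Points are the 4 pairs of glands with SE bars, filled where called, and black lines mark the origin contrast, which is -8.07 for SPDEF and 6.16 for PAX2, with ELF5 split on both sides of 0 and no pair called for GRHL2.

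GRHL2 had overlapping levels in the 4 glands. Its lowest, median and highest values were 23.0, 25.4 and 34.9 TPM in epididymis, 23.2, 39.2 and 46.4 TPM in vesicular gland, 31.3, 35.1 and 40.7 TPM in prostate gland and 25.3, 30.3 and 38.4 TPM in bulbourethral gland. Testis had at most 0.784 TPM. The origin difference was -0.08 (SE 0.11, adjusted p = 0.65), and none of the 6 pairs among these glands was called. The sign rests on the scaling, as it was 0.10 with size factors, where epididymis minus vesicular gland (-1.53) and vesicular minus bulbourethral gland (1.11) were called. Scaled to EPCAM, CDH1, KRT8 and KRT18 it was 0.87, and vesicular minus bulbourethral gland was 1.64 and called.

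ELF5 had its highest level in vesicular gland and its lowest in epididymis, the 2 duct-derived glands. Vesicular gland had 211, 383 and 255 TPM in BMI and 207, 295 and 310.1 TPM in DSE, while epididymis did not exceed 3.91 TPM. Bulbourethral gland had 63.3, 101 and 49.6 TPM in BMI and 196, 111 and 71.2 TPM in DSE. Prostate gland had 10.7, 145 and 4.83 TPM in BMI and 31.8, 16.3 and 24.6 TPM in DSE, so BMI replicate 2 lay apart from the other 5. All vesicular libraries exceeded all others. Vesicular minus prostate gland was 3.57 (adjusted p = 1.2e-05) and 4.26 without that library, and vesicular minus bulbourethral gland was 1.60 (adjusted p = 0.014), whereas epididymis minus these was -3.45 (adjusted p = 1.1e-05) and -5.42 (adjusted p = 9.8e-09). The origin mean, -0.93 (adjusted p = 0.053), therefore averages opposite differences, and it was called in 7 of 40 alternatives. With Ensembl transcripts alone it was 1.54, while with a pseudocount of 0.1 it was -1.45 and without any 1 of 5 libraries it was between -1.16 and -1.01. Ensembl transcripts alone also ended the calls of epididymis minus prostate (-1.96) and minus bulbourethral gland (-1.74), and vesicular minus bulbourethral gland was not called in BMI alone (adjusted p = 0.10) or DSE alone (adjusted p = 0.076). Testis had between 2.28 and 23.3 TPM.

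TP63 was low in prostate gland and higher in the other 3 glands. Epididymis had 6.52, 18.4 and 4.69 TPM in BMI and 14.2, 8.03 and 21.3 TPM in DSE. Vesicular gland had 8.03, 7.26 and 5.32 TPM in BMI and 1.72, 3.77 and 3.07 TPM in DSE, and bulbourethral gland between 4.38 and 17.1 TPM. Prostate gland had between 0.317 and 1.74 TPM, and only the lowest vesicular library, at 1.72 TPM, lay within that range. Prostate minus bulbourethral gland was -2.09 (adjusted p = 2.8e-05) and vesicular minus prostate gland 1.52 (adjusted p = 0.00056). Epididymis minus bulbourethral gland (0.55, adjusted p = 0.19) and vesicular minus bulbourethral gland (-0.57, adjusted p = 0.14) were not called, but with scaling to epithelial genes the first was 1.59 (adjusted p = 4.1e-05) and called, and the second was 0.81. The origin difference of 1.03 (SE 0.22, adjusted p = 0.00055) was just past the size asked for. It was 1.98 with scaling to epithelial genes, while it fell to between 0.904 and 0.9999 and was not called when any 1 of 9 libraries, named in the closing section, was left out.

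Over the 6 pairs among these 4 glands, the factors called were 7 of 8 in epididymis against prostate gland (21.3% of all genes called) and 6 of 8 in epididymis against bulbourethral gland (21.3%). For vesicular gland they were 7 of 8 against prostate gland (14.8%) and 6 of 8 against bulbourethral gland (27.8%). Within origin they were 5 of 8 between epididymis and vesicular gland (36.5%) and 4 of 8 between prostate and bulbourethral gland (7.65%). Of the calls between epididymis and vesicular gland, that of SPDEF (-1.08) was lost in DSE alone (-0.16), with Ensembl transcripts alone (0) and without BMI vesicular gland replicate 1 or 2 (-0.91 and -0.90). That of TP63 (1.11) was lost with size factors (0.19), with scaling to epithelial genes (0.77), in BMI alone (0.27) and without BMI epididymis replicate 2 (0.85), DSE epididymis replicate 3 (0.96) or DSE vesicular gland replicate 1 (0.996). Of those between prostate and bulbourethral gland, that of SPDEF was also lost with scaling to epithelial genes (-0.77) and in BMI alone (-1.51, adjusted p = 0.12), and that of ELF5 with this scaling (-1.44, adjusted p = 0.053), with Ensembl transcripts alone (0.21) and in BMI alone (-1.69, adjusted p = 0.22). Without BMI prostate gland replicate 2 the calls in these pairs and by origin stayed as they were, except that of SPDEF in prostate minus bulbourethral gland. The origin difference was then -4.27 for FOXA1, -5.06 for FOXA2, -2.05 for EHF, -0.58 for ELF5, -0.08 for GRHL2 and 1.07 for TP63. Vesicular minus prostate gland was then -2.28 for FOXA1, -4.66 for FOXA2, -1.70 for EHF, 5.77 for PAX2 and 1.60 for TP63, and prostate minus bulbourethral gland -1.22 for FOXA1, -2.66 for ELF5 and -2.16 for TP63. The median difference of all genes was not 0 in these pairs, from 0.74 in epididymis minus vesicular gland to -0.46 in vesicular minus bulbourethral gland, and a factor's difference is to be read against it.

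ELF5 transcripts used different starts in the glands. The second start group (chr2:26456915) held between 84.0% and 95.9% of ELF5 TPM in the 6 bulbourethral libraries and between 67.1% and 96.6% in 5 prostate libraries. The third group (chr2:26458831 to 26459100) held between 46.0% and 60.9% in vesicular gland, between 0.847% and 9.47% in bulbourethral gland and between 0% and 20.7% in the same 5 prostate libraries. BMI prostate gland replicate 2 had 52.0% in the third group, within the vesicular range. The vesicular gland had 91.2 to 124 TPM from the second group and 95.5 to 233 TPM from the third. In testis the fifth and seventh groups, further downstream, held the most, with medians of 60.3% and 24.3%. These shares are estimates from short reads that the transcripts largely have in common, and the start shares were not tested.

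Long reads gave counts for the same groups. In the DSE libraries ELF5 start group 3 had 123 of 209 full-length reads in vesicular gland (58.9%, exact 95% interval 51.9% to 65.6%), 9 of 53 in bulbourethral gland (17.0%, 8.07% to 29.8%) and 2 of 27 in prostate gland (7.41%, 0.91% to 24.3%). In BMI it had 135 of 174 reads in vesicular gland (77.6%, 70.7% to 83.5%) and 1 of 13 in bulbourethral gland (7.69%, 0.195% to 36.0%). The BMI prostate library had 102 of 189 (54.0%, 46.6% to 61.2%), and it is the library with 7.27% of reads from vesicular genes. The vesicular intervals lay above those of bulbourethral gland in both breeds. Intervals cover counting error only, since reads were amplified by PCR and there was 1 library per breed and gland.

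By short reads alone, EHF also differed in its annotated starts. The third start group (chr2:26331444), which lies in an intron of 11 other EHF transcripts, held between 60.3% and 91.8% of EHF TPM in epididymis and between 74.4% and 90.6% in vesicular gland. In bulbourethral gland it held between 21.2% and 62.5%, and in prostate gland between 14.1% and 37.0% in 5 libraries and 74.2% in BMI replicate 2. The second start group held nearly all the rest. In TPM, the second group ranged from 2.11 to 34.3 over the 12 duct-derived libraries and from 76.8 to 186 over the sinus-derived libraries other than BMI prostate gland replicate 2, at 27.3, so these did not overlap. The third group ranged from 8.09 to 81.7 TPM and from 21.7 to 195 TPM in the same libraries, with overlap. Of the Iso-seq reads of EHF, between 71.4% and 94.8% per library came from isoforms matching part of an Ensembl transcript. These start 7512 bases inside it, at chr2:26332733 in the second start group. They are not among the annotated EHF transcripts, so no TPM was assigned to them. The third group had 5 of 34 reads in DSE and 2 of 23 in BMI vesicular gland. The exact 95% intervals, up to 31.1% and 28.0%, lay below the short-read shares there, so long reads did not bear those out. In the same order, this group had 2 of 7 and 0 of 6 reads in epididymis. It had 0 of 58 and 4 of 18 in prostate and 2 of 40 and 3 of 54 in bulbourethral gland.

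**Figure D3:**
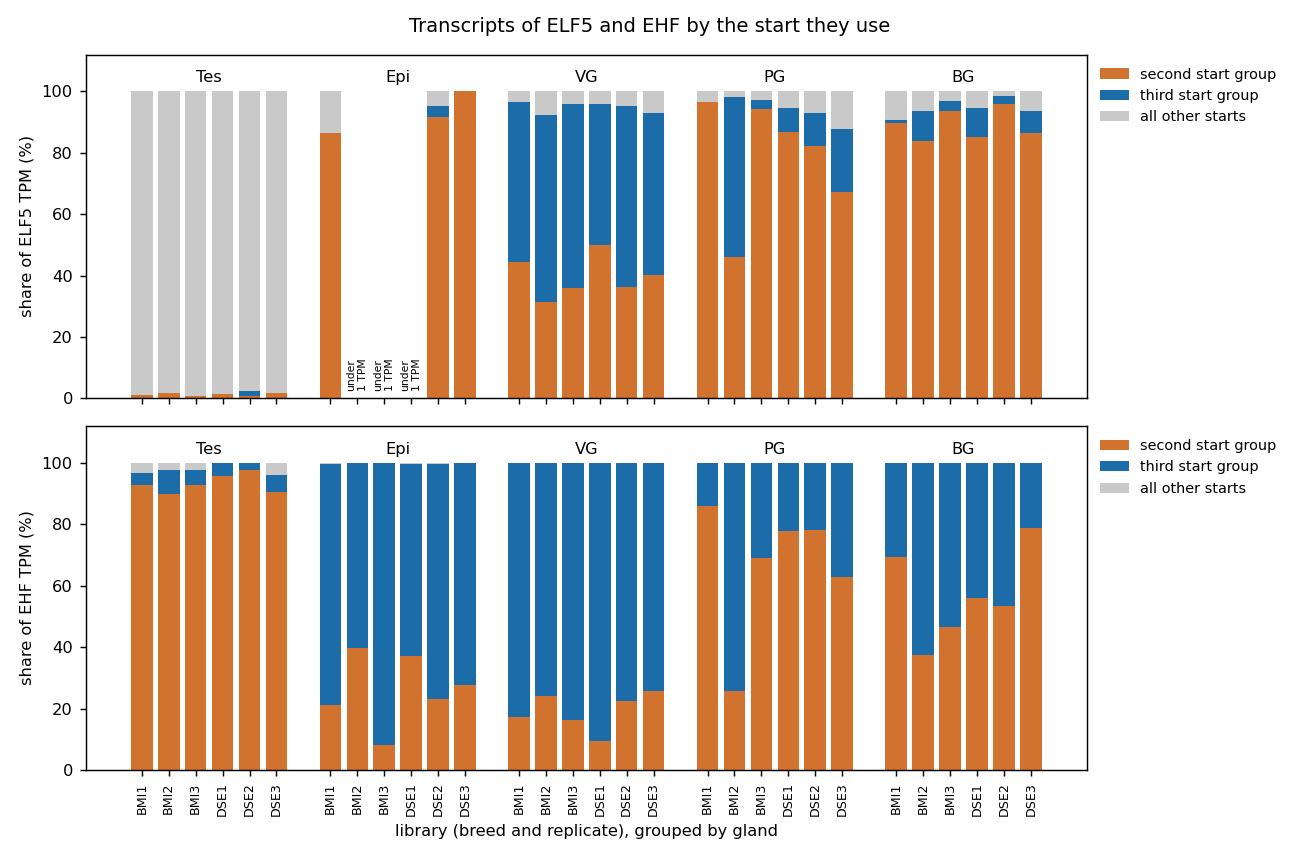
Share of the TPM of ELF5 (top) and EHF (bottom) in percent (y axis) by start group in each of 30 libraries (x axis, grouped by gland), where epididymis libraries under 1 TPM have no bar. The third group of ELF5 takes 46.0% to 60.9% in VG and at most 9.47% in BG, and that of EHF 60.3% to 91.8% in Epi and VG.

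GRHL2, with overlapping gene levels in the 4 glands, had shares of starts that varied as well. Its second start group (chr4:35564889 to 35564919) and its ninth (chr4:35412424), a single Iso-seq transcript that starts in an intron of 14 others, held most of its TPM. The ninth group held between 33.2% and 70.5% in vesicular gland, with a median of 47.2%, and between 3.90% and 58.8% in prostate gland, with a median of 19.3%. It was at 0 in 4 of 6 epididymis libraries, the others having 36.0% and 72.0%, and between 0% and 52.0% in bulbourethral gland. The glands therefore overlapped.

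TP63 came almost wholly from 1 start group. The internal TP63 start group (chr13:127244113 to 127244257), which gives the shorter ΔN forms known from basal cells, held between 95.3% and 100% of TP63 TPM in every library of the 4 glands with at least 1 TPM. The upstream group (chr13:127116105 to 127116361), which gives the TA forms, did not exceed 0.783 TPM. All 20 full-length reads of TP63 came from the internal group. PAX2 used a first group (chr14:111822832 to 111823507) and a second group (chr14:111832919 to 111833507), of which the second held between 56.7% and 80.1% in epididymis and between 42.5% and 71.6% in vesicular gland, with overlap.

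Long reads counted the factors a second time, at lower depth. The reads kept in the deposited isoform table, which are part of what each of the 10 Iso-seq libraries gave, were between 231413 and 458697 full-length reads per library and are the base of all rates per 1000000 here, and the factors had between 20 reads in all (TP63) and 667 (ELF5). FOXA1 had 259 reads in BMI and 170 in DSE bulbourethral gland, or 667 and 641 reads per 1000000, and none in epididymis, where a count of 0, taken to allow up to 3 reads, allows 6.54 reads per 1000000 in BMI and 13.0 in DSE. The exact 2-sided 95% intervals of the plot of Iso-seq reads reach 8.04 and 15.9 there. Prostate gland had 7 FOXA1 reads in BMI and 56 in DSE, and vesicular gland 34 and 4. The order of these glands thus differed between the BMI and DSE libraries, but the BMI prostate library is the one with 7.27% of reads from vesicular genes. SPDEF had 18 and 35 reads in bulbourethral gland, 1 and 4 in prostate gland and none in the other glands. FOXA2 had 15 and 5 reads in bulbourethral gland, 0 and 2 in prostate gland and none elsewhere. PAX2 had 19 and 33 reads in epididymis, 43 and 3 in vesicular gland, none in bulbourethral gland and 10 in the BMI prostate library against 0 in the DSE prostate library. GRHL2 had between 22 and 61 reads in each library of the 4 glands and none in testis. The FOXA1, FOXA2 and SPDEF reads were thus most frequent in bulbourethral gland in both breeds.

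**Figure D4:**
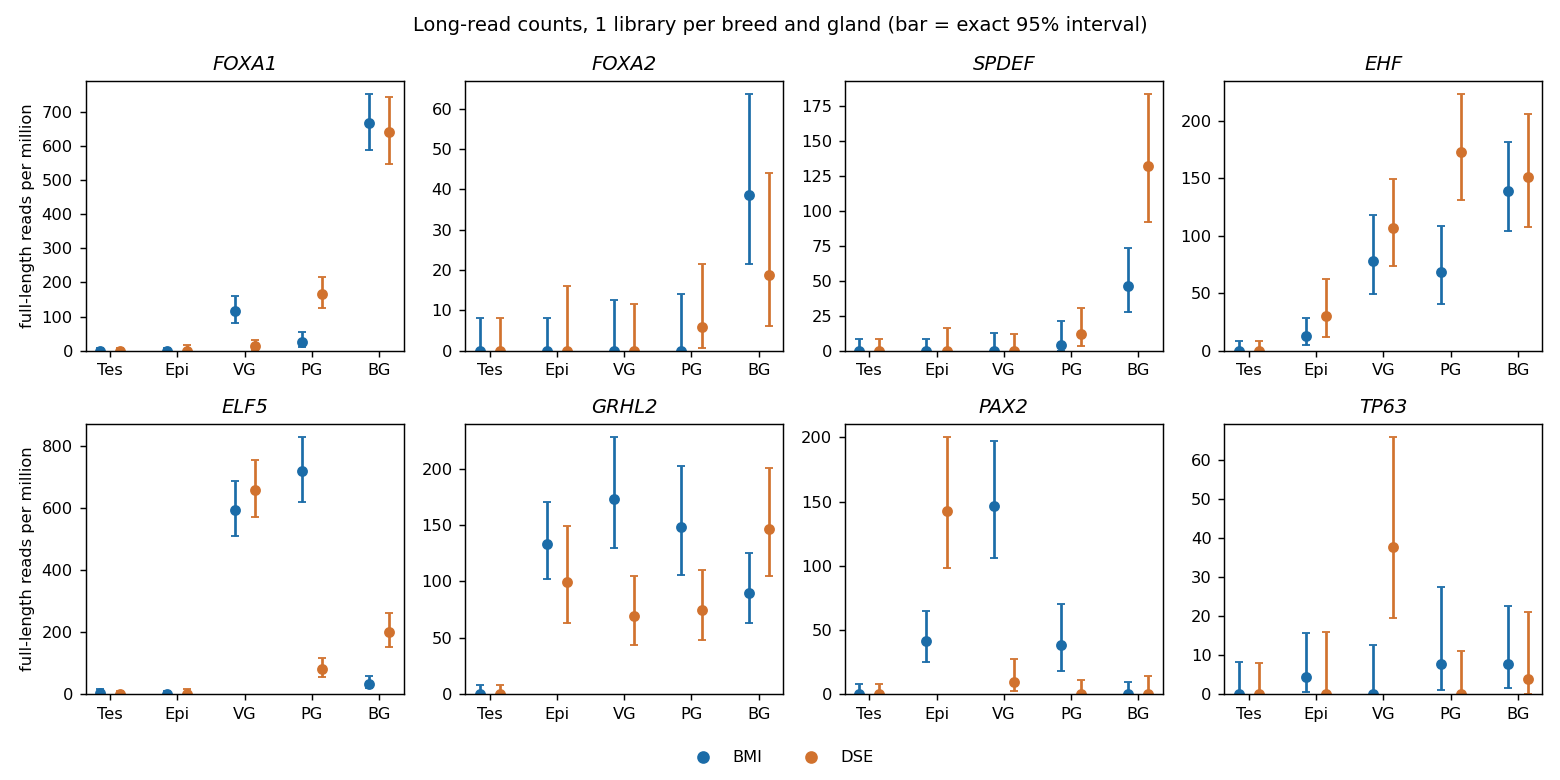
Full-length Iso-seq reads per 1000000 (y axis, separate scale for each gene) in the 5 glands (x axis), BMI in blue and DSE in orange, with exact 95% intervals and 1 library per point. FOXA1, FOXA2 and SPDEF are highest in BG in both breeds, and PAX2 and ELF5 in the BMI prostate library, at 37.98 and 718 reads per 1000000, exceed the DSE prostate library, at 0 and 80.4.

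None of the 8 factors was called between the breeds in any gland or over all glands. Of all genes, 4.77%, 0.703%, 0.477%, 0.598% and 0.296% were called between DSE and BMI, in that order, in testis, epididymis, vesicular, prostate and bulbourethral gland, and 0.387% over all glands. In vesicular gland DSE was below BMI, with differences of -1.87 for SPDEF (SE 0.47, adjusted p = 0.065), -1.37 for PAX2 (SE 0.75, adjusted p = 0.46), -1.22 for FOXA1 (SE 0.36, adjusted p = 0.14) and -1.05 for TP63 (SE 0.44, adjusted p = 0.35). All BMI vesicular libraries exceeded all DSE libraries for these 4 genes, but the share of all genes that separated in this way was not counted. Beyond vesicular gland, PAX2 differed by -1.69 in prostate gland (adjusted p = 0.34), which was 0.0090 without BMI replicate 2, and ELF5 by -1.31 in testis (adjusted p = 0.38). Before adjustment the limit of 0.05 was passed by the vesicular differences of SPDEF, FOXA1 and TP63 and the prostate difference of PAX2. The share of all genes passing that limit is not given here. The vesicular difference of SPDEF was called in 5 alternatives, namely with a pseudocount of 0.1 (-3.51, adjusted p = 0.0049), with size factors (-1.98, adjusted p = 0.043) and without BMI vesicular gland replicate 3 (-2.55, adjusted p = 0.0036), BMI prostate gland replicate 2 (adjusted p = 0.0052) or BMI prostate gland replicate 3 (adjusted p = 0.035). With Ensembl transcripts alone it was 0, where these SPDEF transcripts are listed at 0 in vesicular gland. That of PAX2 was called without BMI prostate gland replicate 2 (adjusted p = 0.028). The summed luminal markers were also lower in DSE vesicular gland, between 806 and 1054 TPM against 1223 to 1367 TPM in BMI, as were basal markers, between 30.8 and 37.5 TPM against 47.0 to 94.2 TPM. Some markers of other cells were lower too and did not overlap, with 181 to 434 TPM against 638 to 1228 TPM for fibroblasts, 58.4 to 79.9 TPM against 86.9 to 170.3 TPM for urothelium, 14.5 to 18.7 TPM against 20.7 to 40.6 TPM for immune cells and 0.830 to 1.74 TPM against 4.31 to 8.30 TPM for epididymis. Others were higher in DSE without overlap, with 3.75 to 8.81 TPM against 0.137 to 0.205 TPM for clear cells and 4.41 to 17.98 TPM against 0.447 to 2.17 TPM for skeletal muscle, and smooth muscle and endothelial markers overlapped. The part of these markers in the result was not tested. The median gene differed by -0.27 in the same comparison. No factor's origin difference was called as differing between the breeds, where 0.136% of genes were, and the largest was -1.39 for SPDEF (adjusted p = 0.29).

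Relatives of the factors were called by origin about as often as all genes were. Of 22 genes of the forkhead, ETS, PAX, grainyhead and p53 families, 19 were tested, 1 was higher in the duct-derived and 2 in the sinus-derived glands, so that 3 of 19 were called against 13.0% of all genes, and the median difference was -0.31 against -0.01 over all genes. PAX9, a factor of endodermal organs, passed all 4 pairs, with means of 118 TPM in bulbourethral and 23.4 TPM in prostate gland and 0.449 and 0.325 TPM in epididymis and vesicular gland (-5.24, adjusted p = 1.4e-19). ETV5 was higher in the duct-derived glands (1.27) and ETS1 in the sinus-derived glands (-1.14).

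Other factors of the urogenital tract and its epithelia divided in both directions. Of 30 listed genes 27 were tested, 6 were higher in the duct-derived and 12 in the sinus-derived glands, against 6.67% and 6.34% of all genes, with a median of -0.86. CREB3L4 was higher in the sinus-derived glands in all 4 pairs (-5.08), and EMX2, a factor of the Wolffian duct, was higher in the duct-derived glands in all 4 (4.99), with 50.3 TPM in epididymis, 46.2 TPM in vesicular gland, 4.66 TPM in prostate and 0.171 TPM in bulbourethral gland. BMI prostate gland replicate 2 held 27.1 TPM of EMX2, and the mean of the other 5 prostate libraries was 0.173 TPM. HOXB13 was above 0 in none of the 18 libraries of epididymis, vesicular and bulbourethral gland, and testis had at most 0.215 TPM of it.

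Of genes linked to SPDEF and FOXA factors in mucous cells, 9 of 11 tested were called higher in the sinus-derived glands, against 6.34% of all genes. In the other direction 1 was called, against 6.67%, and the median was -3.82. The stricter rule of all 4 pairs was met by 5 for the sinus-derived glands (1.84% of genes). For the duct-derived glands 1 met it (1.4%). TFF3, a mucosal peptide, averaged 10738 TPM in bulbourethral gland, 6.56 TPM in prostate gland and 0.301 and 0.015 TPM in epididymis and vesicular gland (-7.62). AGR2, which helps mucins fold, averaged 12397, 801, 80.4 and 57.5 TPM in bulbourethral, prostate, epididymis and vesicular gland (-5.43), and ERN2, a stress sensor of mucous cells, 124 and 10.96 TPM in the first 2 and 0.0918 and 0.437 TPM in the others (-4.43). GALNT7, an enzyme that starts O-glycans, was called in the opposite direction (2.98). Without BMI prostate gland replicate 2 the prostate means were 7.77 TPM for TFF3, 928 TPM for AGR2, 11.8 TPM for ERN2 and 1.15 TPM, in place of 3.22 TPM, for GALNT7. Single libraries moved other prostate means as well, ERN2 averaging 4.14 TPM without BMI replicate 1, at 45.1 TPM, and AGR2 525 TPM without DSE replicate 1, at 2184 TPM. Of the 19 genes listed, 6 were not matched by name, among them MUC5AC and MUC5B.

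Genes that GRHL2 is known to maintain were called by origin in 3 of 18 cases, against 13.0% of all genes. Of these, 1 was higher in the duct-derived glands (CDH3, 1.14) and 2 in the sinus-derived glands (SPINT1, -1.23, and EPCAM, -1.15), and the median over the 18 was -0.09. CDH1, encoding E-cadherin, averaged 99.1, 159.5, 76.5 and 123 TPM in epididymis, vesicular, prostate and bulbourethral gland (0.35, adjusted p = 0.077). The opposing mesenchymal factors ZEB1, SNAI1, SNAI2, TWIST1 and TWIST2 were all tested and not called, with a median of -0.25, and ZEB2 was not matched by name.

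Basal genes linked to TP63 split, with 5 of 16 tested higher in the duct-derived and 3 in the sinus-derived glands, against 6.67% and 6.34% of all genes, and a median of -0.17. KRT5, the keratin of basal cells, averaged 42.6 TPM in epididymis, 32.9 TPM in vesicular gland, 3.58 TPM in prostate gland and 72.8 TPM in bulbourethral gland, and prostate gland was lowest of the 4, as for TP63. Without BMI prostate gland replicate 2, at 10.9 TPM, the prostate mean of KRT5 was 2.11 TPM, and without DSE bulbourethral gland replicate 3, at 206 TPM, the bulbourethral mean was 46.2 TPM. ITGB4 (-2.36), ITGA6 (-1.65), KRT15 (1.53) and TRIM29 (1.52) were the others with the largest differences, and ITGB4 averaged 65.0 TPM in prostate gland. Over the 24 libraries of the 4 glands, Pearson's r of TP63 was 0.865 with KRT5, 0.894 with TRIM29 and -0.11 with ITGB4. Within single glands r with KRT5 was between 0.658 and 0.843 over 6 libraries each. The libraries share their depth and normalization, and these values are descriptions. The summed basal markers were 4.94 to 18.9 TPM in prostate gland and 53.7 to 340 TPM in bulbourethral gland.

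**Figure D5:**
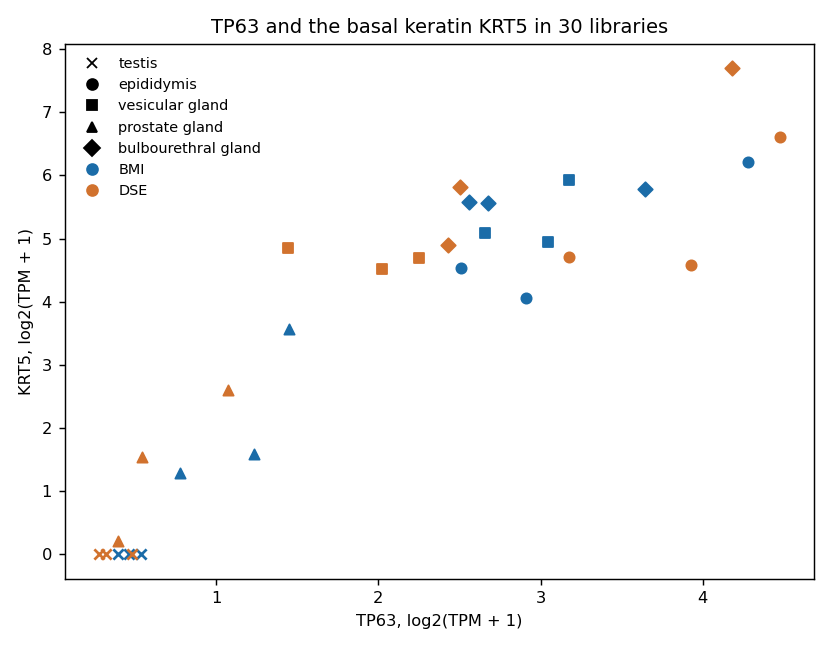
TP63 (x axis) against KRT5 (y axis), both as log2(TPM + 1), with a point for each of 30 libraries, shaped by gland and coloured by breed. Prostate libraries lie at the lower left with at most 10.9 TPM of KRT5, and the highest bulbourethral library has 17.1 TPM of TP63 and 206 TPM of KRT5.

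The genes whose levels over the 30 libraries were most like those of each factor were named by Pearson's r of log2(TPM + 1). For FOXA1 they were HOXD13 (0.974), C9orf152 (0.971) and KCNN4 (0.942), and for FOXA2 they were SLC5A8 (0.993), MLPH (0.991) and SP8 (0.99). SPDEF was most like FOXA2 (0.985), MLPH (0.982) and SLC5A8 (0.981), and EHF most like DSP (0.981), KLHDC7A (0.979) and WWC1 (0.979). PAX2 was most like SIM1 (0.987), EDDM3B (0.987) and EMX2 (0.985), and GRHL2 most like BICDL2 (0.989), PRRG2 (0.987) and PRSS8 (0.98). For TP63 they were VSNL1 (0.925), MCOLN2 (0.923) and KRT5 (0.916). ELF5 had no gene above SLC7A4 (0.857), followed by PTK6 (0.852) and TM4SF5 (0.815). Among the factors over the 24 libraries without testis, PAX2 had r of -0.948 with FOXA2 and -0.945 with SPDEF. The gland differences shared by all genes of a gland enter each r.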

How the data were processed

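Gene expression in 5 glands of BMI and DSE pigs was taken from the TPM values that the authors deposited, made with Salmon 1.9.0 on the Ensembl transcripts of Sscrofa11.1 merged with Iso-seq isoforms. TPM keeps no depth, so the read number behind a value is unknown. The protocol text names poly-T beads in one place and removal of ribosomal RNA in another, and this was not settled. Counts of full-length Iso-seq reads per isoform were used as deposited by the authors, with GSNAP 2018-07-04 named in the submitters' processing notes. The small RNA table was not used.

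TPM were summed by gene name, genes with at least 1 TPM in 3 libraries were kept, and log2(TPM + 1) was fitted in limma 3.58.1 (R 4.3.3) with 10 breed-by-gland groups of 3 libraries and a mean-variance trend. A fold change on this scale understates the change of low genes. The fit was tested on simulated data, where 98% of genes planted with a log2 difference of 2 by origin and 42% of those planted with 1 were called. For the breed in vesicular gland these were 80.5% and 16.5%. Start windows were read from the RefSeq genome of the same build, and intervals for read shares are exact (Clopper-Pearson).

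The factors and the gene lists were chosen with earlier results of these data known. From each list the text names up to 4 called genes with the largest origin difference and defining markers, and for each factor the 3 genes with the highest Pearson's r. Alternatives were another pseudocount, no filter, median-of-ratios size factors, scaling to epithelial genes, Ensembl transcripts alone, a replicate block, each breed alone, a separate fit of each gland, and leaving out each library in turn. PAX8 was not analysed here. Some genes that this rule selects and 1 start window are not reported here.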

Additional observations from a re-analysis of the deposited data

Results flagged for a closer look

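Within each gland, the highest or lowest of the 6 libraries lay far from the other 5 by Dixon's criterion (critical value 0.625) in 8 of 39 tests, of which chance flags about 1 in 20. BMI prostate gland replicate 2 accounted for 3 of them, with the lowest FOXA2 (12.5 TPM), the lowest SPDEF (67.9 TPM) and the highest PAX2 (33.4 TPM) of the prostate libraries, and it is the library in which 20 vesicular gland genes summed to 418413 TPM. FOXA2 was highest in DSE bulbourethral gland replicate 1 (65.7 TPM), ELF5 was lowest in DSE testis replicate 2 (2.28 TPM), and GRHL2 was highest in BMI epididymis replicate 2 (34.9 TPM). Near 0, FOXA2 stood out in BMI testis replicate 1 (0.0356 TPM) and PAX2 in BMI bulbourethral gland replicate 2 (0.0311 TPM).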

How the results depend on the processing

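The origin calls of FOXA1, FOXA2, SPDEF and PAX2 held under 40 of 40 alternatives and that of EHF under 39 of 39, while that of TP63 held under 31 of 40. TP63 by origin was not called without BMI epididymis replicate 2, DSE epididymis replicate 3, DSE vesicular gland replicate 2, BMI prostate gland replicate 3, DSE prostate gland replicate 2, BMI or DSE bulbourethral gland replicate 1, BMI bulbourethral gland replicate 3 or DSE bulbourethral gland replicate 2. The causes of the changes below were not tested.

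By origin, 2591 genes were called, against 4361 with a pseudocount of 0.1, 8185 with epithelial scaling and 1638 with Ensembl transcripts alone. Over the 10 gland pairs, testis included, the calls, 65909 in sum, became 121091 with epithelial scaling and 39693 with Ensembl transcripts alone. Those of the factors fell from 59 to 39 with Ensembl transcripts alone, in part because EHF and GRHL2 were then too low to be tested. Breed calls within glands, 1362, became 762 with epithelial scaling, 588 with Ensembl transcripts and 301 with a separate fit of each gland, and 1 factor was called, not 0, with a pseudocount of 0.1 and likewise 1 with size factors. Breed calls over all glands rose from 77 to 308 with a pseudocount of 0.1. Calls of breed differences between glands, 920, became 552 with a pseudocount of 0.1, where 1 factor was called, 425 with epithelial scaling and 345 with Ensembl transcripts.

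Several differences changed sign. With epithelial scaling ELF5 by origin was 0.020, GRHL2 by origin 0.87, EHF in prostate minus bulbourethral gland 0.22, GRHL2 in epididymis minus prostate gland 0.091 and minus bulbourethral gland 0.84, and TP63 in vesicular minus bulbourethral gland 0.81. With size factors GRHL2 by origin was 0.10 and TP63 in vesicular minus bulbourethral gland 0.15, which was 0.00031 in BMI alone. With Ensembl transcripts alone ELF5 was 1.54 by origin and 0.21 in prostate minus bulbourethral gland, and PAX2 in epididymis minus vesicular gland was -0.078. EHF in prostate minus bulbourethral gland was 0.087 in DSE alone.

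Leaving out each library in turn gave 2494 to 2784 genes and 5 to 7 factors by origin, 1002 to 1973 genes and 0 to 2 factors for breed within glands, and 598 to 1555 genes and 0 to 2 factors for breed differences between glands. The lowest of the last was without BMI testis replicate 3 and the highest without DSE testis replicate 3. GRHL2 in vesicular minus prostate gland ranged from -0.041 to 0.20, and PAX2 in DSE minus BMI prostate gland from -2.54 to 0.0090, the last without BMI prostate gland replicate 2.

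With a replicate block 2596 genes and 6 factors were called by origin, 66038 and 59 over the gland pairs, 1364 and 0 for breed within glands, 80 and 0 over all glands, and 881 and 0 for breed differences between glands. No factor gained or lost a call under the block. The labels do not say whether libraries with the same number share a boar. Their deviations correlated above 0.1 in 20 of 60 same-numbered gland pairs (median r 0.047) and in 4 of 15 breed pairs (median r -0.042). All 3 numbers passed 0.1 in 2 of 20 combinations of breed and glands, DSE epididymis with vesicular gland (0.229 to 0.390) and DSE testis with vesicular gland (0.151 to 0.293), and in 0 of 5 between the breeds.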

Other observations

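Markers of other cells differed between the glands. Of the 6 smooth muscle markers 5 were called higher in the duct-derived glands, against 6.67% of all genes, with a median log2 difference of 3.03. All 4 pairs across origins were called for 0 of them. They summed to 1844 to 18793 TPM in epididymis and 134 to 469 TPM in bulbourethral gland. Vesicular gland, at 433 to 3757 TPM, and prostate gland, at 160 to 3022 TPM, overlapped. Of 5 urothelium markers tested 3 were called higher in the duct-derived glands, against 6.67% of all genes, and 2 passed all 4 pairs. Epididymis markers summed to between 1573 and 32017 TPM in the 6 epididymis libraries.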
